A study of Mus musculus with 17 samples.

Results

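The 4 wild-type (WT) libraries of mouse limb buds at stage E12.5 fell into pairs with very different levels of Pitx1, the transcription factor gene that marks the hindlimb. They were split at 20 CPM, where CPM is a gene's count for every 1000000 counts of the library total. WT 1 and WT 3 had 58.7 and 68.5 CPM and are called Pitx1-high here. WT 2 and WT 4 had 1.91 and 1.91 CPM and are called Pitx1-low. These values chose the classes and are given as a description, with no test. Libraries were thus selected on their own Pitx1 values. They are 4 of 17 samples in all, and 15 samples are represented in the deposited gene tables. The study sequenced polyA RNA of limb buds from WT embryos and from embryos with structural variants of the Sox9-Kcnj locus, which were Dup-C, ΔBor in 2 het and 1 hom samples, Dup-LΔBor and Dup-L. Dup-C and Dup-L are genomic duplications, ΔBor is a boundary deletion, and WT embryos carry none of these alleles. Neither the limb taken, nor the zygosity of the duplications, nor the origin of replicates from separate embryos is stated in the labels. Any p-value here therefore measures only the spread between these libraries, part of which may be technical.

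Library numbers in the column headers fall into 2 ranges, and each range holds 1 WT library of each class. WT 1 and WT 2 lie in the first and WT 3 and WT 4 in the second. Pitx1-high was therefore compared with Pitx1-low within each range, as log2 of the ratio of CPM + 0.5, over 13935 genes with a mean of at least 1 CPM in the 4 libraries. A gene is called higher or lower where it was at least 2-fold apart in both ranges. Because Pitx1 in these libraries set the classes, no p-value is given for any gene of this contrast. All 15 libraries held between 34486256 and 53711742 counts, and the WT libraries spanned the same interval. Prrx1, a gene of limb mesenchyme, stood at 719 and 536 CPM in Pitx1-high libraries and at 698 and 573 CPM in Pitx1-low libraries, so the labelled tissue was borne out by an abundant marker in each.

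Forelimbs and hindlimbs form from similar fields of lateral plate mesoderm and use much of the same patterning machinery, and a small set of regulators sets the limb type. Tbx5 starts the forelimb bud, whereas Isl1, Pitx1 and Tbx4 act in the hindlimb. Hox genes give each level of the body axis its address, and the caudal members of the HoxC cluster are known for their expression in the hindlimb. The mouse forelimb bud forms before the hindlimb bud.

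Promoters of 3 of the higher genes, Tbx4, Isl1 and Evx1, were available from RefSeq (GRCm38.p6), and are shown because these genes carry the limb-type pattern below. Each window runs from 250 bases before to 50 bases after the start site, 5′ to 3′ on the gene's own strand. The windows are chr11:85896515-85896814 (plus strand) for Tbx4, chr13:116309639-116309938 (minus strand) for Isl1 and chr6:52313248-52313547 (plus strand) for Evx1. Capitals mark TAATCC, the bicoid-type motif that PITX proteins bind, searched on both strands.
Tbx4: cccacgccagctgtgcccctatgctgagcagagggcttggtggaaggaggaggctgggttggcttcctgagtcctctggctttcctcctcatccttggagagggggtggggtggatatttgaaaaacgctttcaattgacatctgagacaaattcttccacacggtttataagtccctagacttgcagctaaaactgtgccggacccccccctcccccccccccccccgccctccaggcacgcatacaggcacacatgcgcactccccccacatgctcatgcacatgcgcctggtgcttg
Isl1: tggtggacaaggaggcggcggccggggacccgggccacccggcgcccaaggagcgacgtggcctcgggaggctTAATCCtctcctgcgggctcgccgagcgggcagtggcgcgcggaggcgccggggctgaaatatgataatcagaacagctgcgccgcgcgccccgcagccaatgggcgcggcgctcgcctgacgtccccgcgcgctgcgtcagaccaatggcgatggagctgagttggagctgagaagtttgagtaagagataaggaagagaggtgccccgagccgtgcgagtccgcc
Evx1: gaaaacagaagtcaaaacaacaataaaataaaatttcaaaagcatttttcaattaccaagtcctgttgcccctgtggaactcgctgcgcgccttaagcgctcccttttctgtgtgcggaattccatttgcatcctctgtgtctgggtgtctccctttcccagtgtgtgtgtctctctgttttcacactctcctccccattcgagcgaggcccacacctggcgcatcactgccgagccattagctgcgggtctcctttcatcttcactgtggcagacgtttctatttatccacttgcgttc
The GC content of these windows was 59% for Tbx4, 69% for Isl1 and 48.7% for Evx1. TAATCC occurred once, in the Isl1 window, starting 177 bases before the start site, at position -177. Of the 10 higher genes described below, 5 had a window, and Isl1 alone among them held the motif. It was present in 7.06% of all 32851 windows of this length, and in 1 of 33 matched lower genes, Capn3. The T-box motif GGTGTGA, searched on both strands and not overlapping TAATCC in its letters, was in 3.98% of all windows. None of the 5 higher genes held it, and among lower genes Col11a2 and Meg3 did.

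Of 5 hindlimb regulators besides Pitx1, 4 were higher in the Pitx1-high libraries in both ranges, but the classes did not separate into presence and absence. Over all genes, 22.7% were higher and 48.3% lower in both ranges by any amount. Tbx4, the T-box gene of the hindlimb, had 63.2 and 84.6 CPM in Pitx1-high libraries (WT 1, WT 3) and 27.0 and 28.9 CPM in Pitx1-low libraries (WT 2, WT 4). It was higher by 1.21 and 1.54 on the log2 scale in the first and second range. The Pitx1-low libraries thus kept a substantial Tbx4 level, and the classes did not overlap.
Isl1, a LIM-homeodomain gene that acts early in the hindlimb field, had 2.16 and 2.07 CPM in Pitx1-high libraries and 0.506 and 0.290 CPM in Pitx1-low libraries. Those levels rest on 114 and 111 reads in Pitx1-high libraries and on 27 and 10 reads in Pitx1-low libraries. Isl1 was low in every library, and its ratios were 1.40 and 1.70.

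Tbx5, the forelimb T-box gene, was lower in the Pitx1-high class. It had 133 and 99.9 CPM in Pitx1-high libraries and 244 and 200 CPM in Pitx1-low libraries. Its ratios of -0.87 and -0.996 just missed the 2-fold rule, and the classes did not overlap. The direction of Tbx4, Tbx5, Hoxc10 and Hoxc11 was that of hindlimb-like against forelimb-like buds, but Tbx5 was abundant in the Pitx1-high class and Tbx4 was present in the Pitx1-low class. The classes are therefore called by their Pitx1 level. In bulk tissue, fewer cells expressing a gene and less RNA per cell cannot be told apart.

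**Figure D1:**
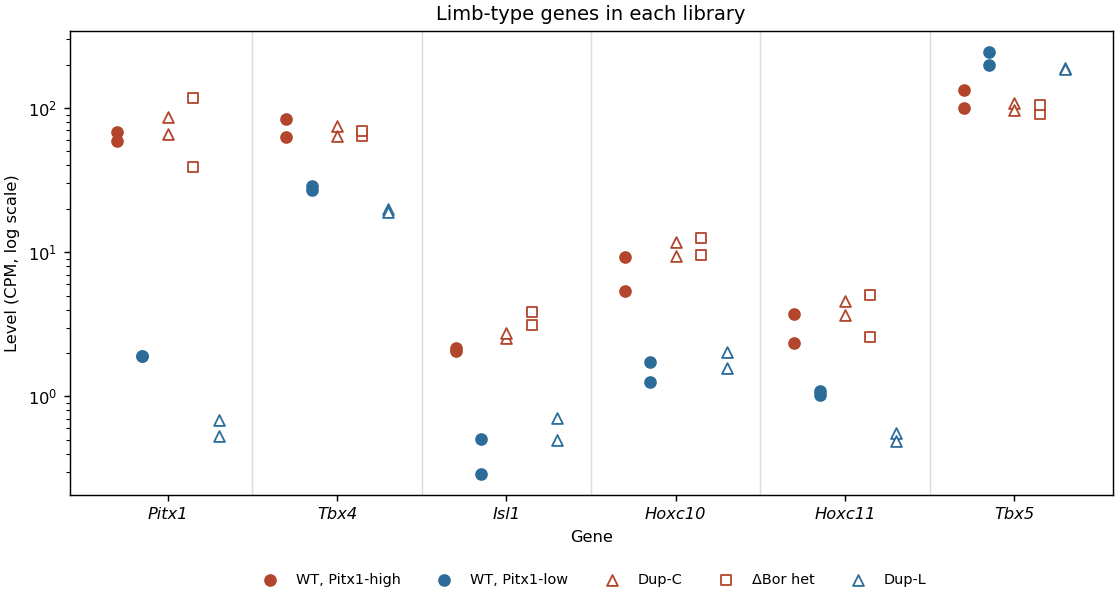
Level of 6 limb-type genes in CPM (log scale) in each library, with filled circles for WT and open symbols for Dup-C, ΔBor het and Dup-L; each symbol is 1 library, and the Pitx1 values of the Pitx1-low WT libraries coincide at 1.91 CPM. Pitx1, Tbx4, Isl1, Hoxc10 and Hoxc11 are higher in the Pitx1-high libraries, and Tbx5 is lower in them but still at 133 and 99.9 CPM.

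The HoxC cluster stood higher in the Pitx1-high class within each range, but the classes overlapped for most of its genes. All 9 of its measured genes were higher in both ranges, against 22.7% of all 13935 genes. The median log2 ratio was 0.51 in the cluster, against -0.075 over all genes. Hoxc10, a caudal HoxC gene of the hindlimb, had 9.19 and 5.40 CPM in Pitx1-high libraries and 1.72 and 1.25 CPM in Pitx1-low libraries, giving ratios of 2.12 and 1.76. Hoxc11, its neighbour, had 3.73 and 2.33 CPM in Pitx1-high libraries and 1.09 and 1.01 CPM in Pitx1-low libraries, and its ratios of 1.42 and 0.90 reached 2-fold in the first range only. Hoxc10 and Hoxc11 marked the peak of the cluster, and every other member had a smaller ratio in each range. Hoxc9 followed with 0.91 and 0.62, Hoxc4 had 0.66 and 0.53, Hoxc13 had 0.45 and 0.44, and Hoxc12 had 0.06 and 0.37. Hoxc9, Hoxc10, Hoxc11 and Hoxc12 were the members whose classes did not overlap, against 11.6% of all genes that were higher without overlap.

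The other Hox clusters held no gene past 2-fold in both ranges. In the HoxD cluster, 7 of 9 measured genes were lower in both ranges (6 with TMM library scaling), against 48.3% of all genes, with a median of -0.46. Hoxd9 had 19.8 and 13.3 CPM in Pitx1-high libraries and 36.4 and 24.4 CPM in Pitx1-low libraries, and Hoxd3 had 2.69 and 1.94 CPM in Pitx1-high libraries and 6.30 and 4.002 CPM in Pitx1-low libraries. Both were separated without overlap, as were Hoxd8 and Hoxd10, against 31.8% of all genes that were lower without overlap. Nothing is read from that count of 4 in 9 genes. At the digit-forming end of that cluster Hoxd13, needed for digit patterning, had 676 and 517 CPM in Pitx1-high libraries and 565 and 500 CPM in Pitx1-low libraries, which overlapped. In the HoxA cluster 4 of 11 genes were higher and 5 lower in both ranges, with a median of -0.11 that moved to -0.01 with TMM library scaling. In the HoxB cluster, 3 of 10 genes reached the level filter. Among them Hoxb9 had 5.93 and 3.65 CPM in Pitx1-high libraries and 2.59 and 1.83 CPM in Pitx1-low libraries, with ratios of 1.06 and 0.83.

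**Figure D2:**
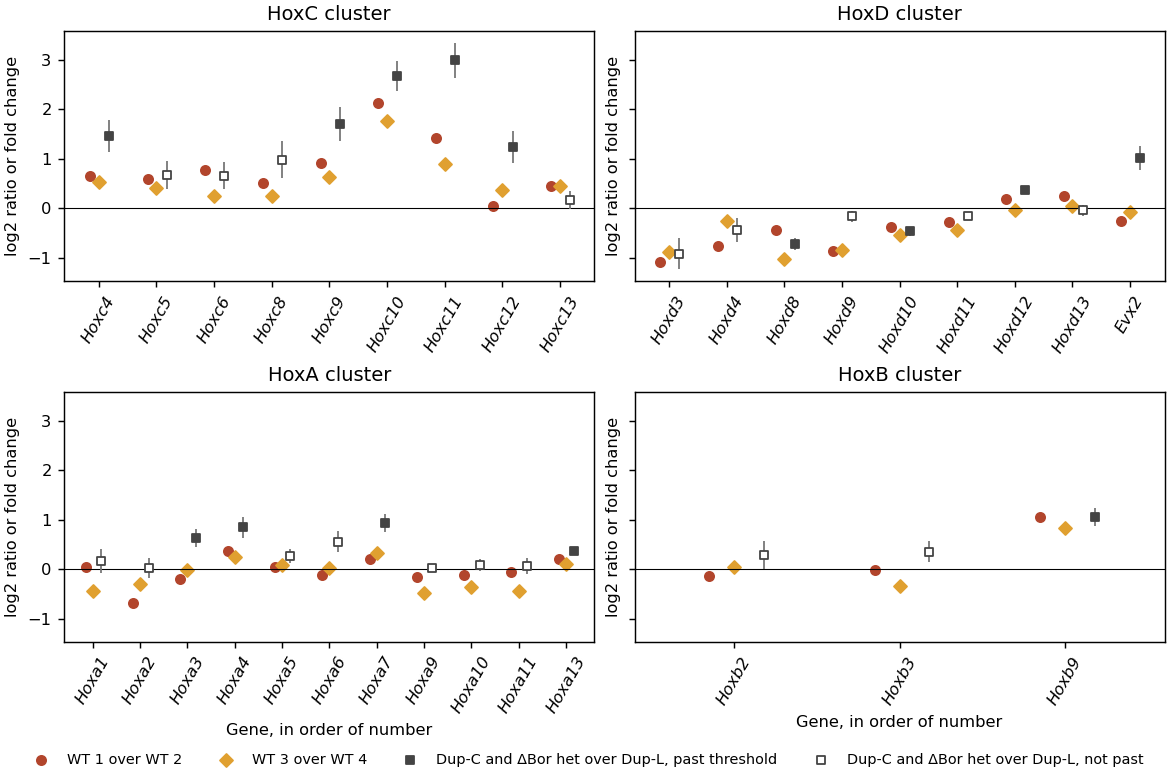
Measured Hox genes (and Evx2) of the 4 clusters in order of number, with the log2 ratio of Pitx1-high over Pitx1-low WT in the first range (circles) and second range (diamonds), and the log2 fold change of Dup-C and ΔBor het over Dup-L with its standard error (squares, filled where past the edgeR threshold). HoxC lies above 0 throughout, with Hoxc10 at 2.12 and 1.76 in WT, whereas most HoxD genes lie below 0.

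Across the transcriptome, 10 genes (0.0718% of 13935) were at least 2-fold higher and 58 (0.416%) at least 2-fold lower in both ranges. With TMM library scaling the counts were 12 and 38, and with DESeq2 size factors 12 and 35, so the balance of the directions depends on the scale. Column totals place the median gene at -0.075 and the other scales place it at 0.023 and 0.035. Single pairs of libraries differed much more. WT 1 and WT 2 were 2-fold apart at 311 genes, WT 3 and WT 4 at 180, WT 1 and WT 3 of the Pitx1-high class at 302, and WT 2 and WT 4 of the Pitx1-low class at 78. The Pitx1-high libraries thus differed from each other at nearly as many genes as the classes did in the first range, and at more genes than the classes did in the second. Pairs within a class cross the ranges, whereas pairs between classes do not, and WT 1 differs from WT 3 in sex-linked genes. The within-class counts therefore do not measure the spread within a class alone.
Just inside the rule lay Sall4 with a smaller ratio of 1.06 and NAKAP95 with -1.002, and just outside lay Cbln1 with 0.96 and Tnnt3 with -0.997. Without overlap between classes, at any size, 1617 genes (11.6%) were higher and 4426 (31.8%) lower, and within ranges 3167 (22.7%) were higher and 6737 (48.3%) lower in both. With TMM scaling the last pair of counts turned to 5581 and 4514.

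**Figure D3:**
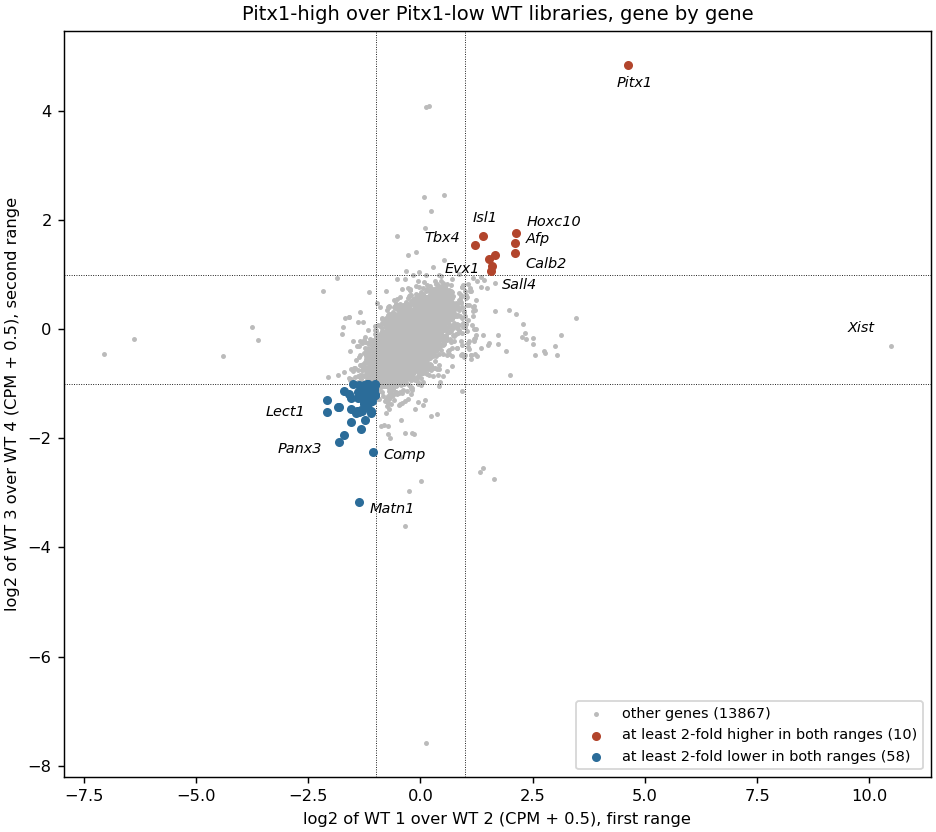
Each point is 1 of 13935 genes, with its log2 ratio of WT 1 over WT 2 on the x axis and of WT 3 over WT 4 on the y axis (CPM + 0.5); dotted lines mark 2-fold. The 10 higher genes sit in the upper right with Pitx1 at 4.62 and 4.84, the 58 lower genes sit in the lower left, and Xist lies alone at the right because WT 1 alone had a high level.

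Besides Pitx1, Tbx4, Isl1 and Hoxc10, the higher genes were Evx1, 5730457N03Rik, Sall4, Calb2, Gchfr and Afp. Evx1, a homeobox gene next to the HoxA cluster, had 9.82 and 5.18 CPM in Pitx1-high libraries and 2.92 and 2.03 CPM in Pitx1-low libraries. The antisense transcript 5730457N03Rik overlaps it, with 14.3 and 7.47 CPM in Pitx1-high libraries and 4.59 and 2.78 CPM in Pitx1-low libraries. Whether counting used the strand is not given in the sources at hand, so reads of these neighbours cannot be told apart.
Sall4, a zinc-finger gene needed in limb outgrowth, had 7.91 and 3.09 CPM in Pitx1-high libraries and 2.34 and 1.22 CPM in Pitx1-low libraries. Calb2, which encodes the calcium-binding protein calretinin, had 4.23 and 2.48 CPM in Pitx1-high libraries and 0.600 and 0.638 CPM in Pitx1-low libraries. Gchfr, a feedback regulator of GTP cyclohydrolase, had 3.17 and 2.70 CPM in Pitx1-high libraries and 0.656 and 0.754 CPM in Pitx1-low libraries. The classes of all of these genes were separated, with WT 1 above WT 3 in each.
Afp, alpha-fetoprotein of yolk sac and fetal liver, had 7.87 and 2.57 CPM in Pitx1-high libraries and 1.44 and 0.522 CPM in Pitx1-low libraries. Alb, another liver gene, was between 0.209 and 0.317 CPM in Pitx1-high libraries and between 0.0870 and 0.0937 CPM in Pitx1-low libraries. These Alb levels rest on 11 and 17 reads in Pitx1-high libraries and on 5 and 3 reads in Pitx1-low libraries. For other liver genes, the classes did not overlap in Apoa1 but overlapped in Ttr. The part of other tissue in the Afp values was not tested.

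Genes of cartilage, bone and matrix were among the lower genes. Lect1, the cartilage protein chondromodulin, had 3.30 and 6.87 CPM in Pitx1-high libraries and 15.6 and 20.7 CPM in Pitx1-low libraries. Matn1, a matrilin of cartilage matrix, had 8.72 and 3.05 CPM in Pitx1-high libraries and 23.5 and 31.5 CPM in Pitx1-low libraries, with ratios of -1.38 and -3.17. Phex, an endopeptidase of mineralising cells, had 4.04 and 5.01 CPM in Pitx1-high libraries and 15.8 and 14.3 CPM in Pitx1-low libraries. In each of these the Pitx1-low libraries were high and the classes did not overlap.
Panx3, a channel gene of cartilage and bone, had 0.379 and 0.317 CPM in Pitx1-high libraries and 2.59 and 2.93 CPM in Pitx1-low libraries, which rests on 20 and 17 reads in Pitx1-high libraries and on 138 and 101 reads in Pitx1-low libraries. Cer1, a secreted antagonist of BMP and Nodal signals, had 0.493 and 0.596 CPM in Pitx1-high libraries and 2.17 and 2.67 CPM in Pitx1-low libraries. These were among the largest ratios of the lower genes, at low levels.
Among abundant transcripts, Dnm3os, a noncoding microRNA host on the opposite strand of Dnm3, had 128 and 62.1 CPM in Pitx1-high libraries and 419 and 238 CPM in Pitx1-low libraries. Meg3, an imprinted noncoding RNA, had 249 and 290 CPM in Pitx1-high libraries and 726 and 795 CPM in Pitx1-low libraries. Both were high in the Pitx1-low libraries without overlap, and reads of Dnm3os and Dnm3 cannot be told apart.
Enpp6, Ptprv, Angptl1, Pla2g4b, Matn4, Pamr1, Susd5 and the row Mir3064 made up the rest of the 15 lower genes with the largest smaller ratio. Mir3064 was the exception to separation among all 58, with 4.38 and 0.763 CPM in Pitx1-high libraries and 11.7 and 4.002 CPM in Pitx1-low libraries. BC006965, a transcript of the Sox9 region singled out after its values were seen, was also lower, with 4.19 and 3.17 CPM in Pitx1-high libraries and 10.2 and 9.19 CPM in Pitx1-low libraries. Sox9 itself, the master regulator of cartilage, had 159 and 133 CPM in Pitx1-high libraries and 168 and 129 CPM in Pitx1-low libraries, which overlapped.

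Cartilage, muscle and other skeletal genes were lower as lists. Over all 13935 genes, 48.3% were lower in both ranges and 0.416% were called lower. Of 17 measured cartilage genes, 16 were lower in both ranges and none higher, with a median of -0.88, and 6 were called lower, namely Col11a2, Matn1, Matn3, Matn4, Comp and Lect1. Col2a1, the main cartilage collagen, had 601 and 422 CPM in Pitx1-high libraries and 793 and 670 CPM in Pitx1-low libraries. Sox9 was the cartilage gene outside the count, with ratios of -0.08 and 0.04.
Of 11 hypertrophic cartilage and bone genes, 8 were lower in both ranges (median -0.59), and Ihh, the hedgehog ligand of prehypertrophic cartilage, and Panx3 were called. Of 22 skeletal muscle genes, 19 were lower (median -0.73), with none called in the list itself. Muscle genes outside the list, picked after their values were seen, were called lower, among them Myh8_copy2 (-1.71 and -1.13), Myh1, Myh7b and Sln. Myog, the differentiation factor of muscle, had 32.9 and 26.2 CPM in Pitx1-high libraries and 53.3 and 44.7 CPM in Pitx1-low libraries. Of 14 joint genes 11 were lower (median -0.42), and of 13 tendon genes 11 were lower (median -0.49), including the called tendon gene Tnmd. With TMM library scaling, 16 cartilage, 7 bone, 18 muscle, 10 joint and 9 tendon genes were lower, against 4514 of all 13935 genes.
The medians of the cartilage, bone, muscle, joint and tendon lists thus lay below that of all genes. The lists give summed levels of 1644 and 1285 CPM in Pitx1-high libraries and 2455 and 2158 CPM in Pitx1-low libraries for cartilage, and of 647 and 929 CPM in Pitx1-high libraries and 1127 and 1440 CPM in Pitx1-low libraries for muscle. The part of cell makeup in any single gene's ratio was not tested.

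Erythroid and surface ectoderm genes lay on the other side. Over all genes, 22.7% were higher and 48.3% lower in both ranges. All 10 measured erythroid genes were higher in both ranges (median 0.75), none past 2-fold in both. Hbb-y, an embryonic beta-type globin, had 2568 and 4016 CPM in Pitx1-high libraries and 1415 and 2551 CPM in Pitx1-low libraries. Its levels in WT 1 and WT 4 were nearly the same, and both libraries of the second range were above their class partners. The adult globin rows were listed at 0 in every WT library, which is not read as absence.
Of 20 surface ectoderm genes, 17 were higher in both ranges (median 0.36) and none lower. Trp63, the regulator of stratified epithelium, had 98.6 and 91.6 CPM in Pitx1-high libraries and 67.5 and 63.7 CPM in Pitx1-low libraries. Summed ectoderm levels were 1436 and 1588 CPM in Pitx1-high libraries and 1142 and 1214 CPM in Pitx1-low libraries. Of 22 cell cycle genes, 15 were higher and 1 lower (median 0.13).
Endothelial and macrophage lists had medians near that of all genes. Of 16 endothelial genes 1 was higher and 4 lower (median -0.06, and 0.04 with TMM), and of 12 macrophage genes 2 were higher and 3 lower (median -0.01, and 0.08 with TMM). Of 13 nerve and glia genes 3 were higher and 7 lower (median -0.24). Of 22 hypoxia and glycolysis genes 5 were higher and 7 lower (median 0.01; 11 were higher with TMM), and of 14 immediate early and heat shock genes 1 was higher and 8 lower (median -0.14). Of 5 measured genes of trunk tissues 1, the called gene Afp, was higher and 3 were lower (median -0.31).

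**Figure D4:**
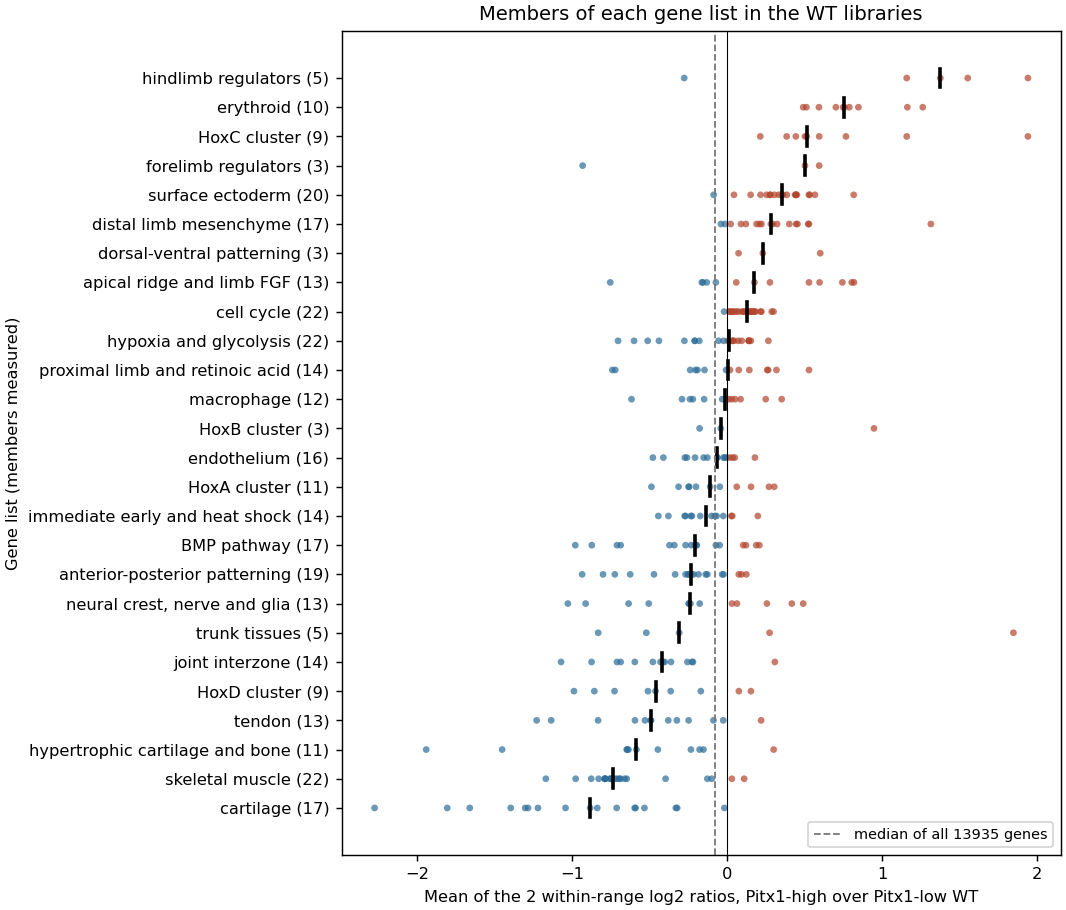
Mean of the 2 within-range log2 ratios of Pitx1-high over Pitx1-low WT for each measured member of each list but the sex-linked one (points) with the list's median (black bar); the number of measured members is in parentheses, the dashed line is the median of all genes at -0.075, and Pitx1 is left out because its values set the classes. Of the lists drawn, hindlimb regulators, erythroid genes and HoxC lie furthest to the right, and muscle and cartilage furthest to the left.

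Among the lists of genes that pattern the limb axes, Sall4 was the only called gene. Of 17 distal mesenchyme genes, 13 were higher in both ranges and none lower (median 0.28), against 22.7% of all genes that were higher. Lhx2, a LIM-homeobox gene of distal outgrowth, had 108 and 90.4 CPM in Pitx1-high libraries and 73.7 and 63.8 CPM in Pitx1-low libraries. Cyp26b1, the enzyme that clears retinoic acid from the distal limb, had 278 and 195 CPM in Pitx1-high libraries and 174 and 149 CPM in Pitx1-low libraries.
Of 13 apical ridge and FGF genes, 6 were higher and 4 lower (median 0.18). Fgf8, the main FGF of the ridge, had 5.80 and 3.39 CPM in Pitx1-high libraries and 2.27 and 2.41 CPM in Pitx1-low libraries. Of 3 dorsal-ventral genes 2 were higher (median 0.23). Of 19 anterior-posterior genes 1 was higher and 11 lower (median -0.23; 8 were lower with TMM), and of 17 BMP pathway genes 3 were higher and 10 lower (median -0.21). With 48.3% of all genes lower in both ranges, nothing is read from these counts of lower genes. Hand1, a basic helix-loop-helix gene of the anterior-posterior list, had 2.81 and 2.38 CPM in Pitx1-high libraries and 5.32 and 4.47 CPM in Pitx1-low libraries.
Of 14 proximal and retinoic acid genes, 7 were higher and 4 lower (median 0.01). The forelimb list had 3 members, and its median of 0.50 came from Hoxc4 and Hoxc5, which also belong to HoxC, whereas Tbx5 was lower.

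WT 1 also differed from the other WT libraries in sex-linked genes. Xist, the noncoding RNA of the inactive X chromosome, had 2224 and 0.391 CPM in Pitx1-high libraries and 1.05 and 0.609 CPM in Pitx1-low libraries. The Y-linked gene Uty had 0 and 33.1 CPM in Pitx1-high libraries and 41.4 and 37.4 CPM in Pitx1-low libraries. WT 1 thus stands apart, whereas WT 3 and WT 4 are alike in these genes. The first range therefore compares libraries that differ in sex-linked genes and the second does not. Without WT 1, when WT 3 was set against both Pitx1-low libraries, 16 genes were higher and 90 lower. Without WT 3, when WT 1 was set against both, 63 were higher and 186 lower. Across GC content the median log2 ratio ran between -0.02 and -0.10 over 5 bins of GC in the first range and between -0.15 and -0.02 in the second, in opposite orders.

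The mutant libraries gave a measure that the split of the WT libraries did not use, but their groups were set with their Pitx1 levels known. The p-values of genes that go with Pitx1 do not allow for that choice. Dup-C (Pitx1 at 86.9 and 66.1 CPM) and ΔBor het (39.1 and 117 CPM) were set against Dup-L (0.526 and 0.685 CPM), all from the first range, with edgeR's quasi-likelihood test on 17512 genes. The fit held 11 mutant libraries and no WT library. Xist was high in Dup-C 1 alone among these 6 libraries, with 2551 and 1.28 CPM in Dup-C and 0.855 and 0.842 CPM in ΔBor het, against 1.25 and 0.959 CPM in Dup-L. The groups are genotypes, so genotype and limb type cannot be told apart in it. At an adjusted p under 0.05, 2324 genes (13.3%) rose and 1226 (7%) fell. Of the 10 genes higher in WT, 9 rose, which is 90% of that list and 0.387% of the genes that rose in mutants. Without Pitx1, for which no p is given because its levels were known when the groups were set, 8 of 9 rose. Of the 58 lower genes, 27 fell, which is 46.6% of that list and 2.2% of the genes that fell. The sign of the fold change matched in 9 of 10 and 53 of 58 genes, and no gene passed the threshold in the opposite direction.

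Tbx4 had 75.2 and 63.7 CPM in Dup-C and 63.6 and 69.8 CPM in ΔBor het, against 19.9 and 19.0 CPM in Dup-L. Its log2 fold change was 1.89 ± 0.10 (SE), with an edgeR adjusted p of 2.7e-06. Isl1 had 2.54 and 2.75 CPM in Dup-C and 3.11 and 3.82 CPM in ΔBor het, against 0.499 and 0.712 CPM in Dup-L, and rose by 2.39 ± 0.27 (edgeR adjusted p = 0.000735). All 4 libraries of Dup-C and ΔBor het were above both Dup-L libraries for these genes.
Tbx5 had 109 and 97.0 CPM in Dup-C and 90.6 and 105 CPM in ΔBor het, against 189 and 186 CPM in Dup-L. It fell by 0.82 on the log2 scale (SE 0.10, edgeR adjusted p = 0.000881). In Dup-L, as in Pitx1-low WT, Tbx4 was still present, and Tbx5 was present in every library.

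Among HoxC genes, 5 of 9 rose and none fell, against 13.3% of all tested genes that rose and 7% that fell. Hoxc10 had 9.35 and 11.8 CPM in Dup-C and 9.6 and 12 CPM in ΔBor het, against 2.02 and 1.56 CPM in Dup-L, a rise of 2.67 ± 0.30 (edgeR adjusted p = 0.000818). Hoxc11 had 3.69 and 4.57 CPM in Dup-C and 2.59 and 5.03 CPM in ΔBor het, against 0.554 and 0.493 CPM in Dup-L, a rise of 2.99 ± 0.36 (edgeR adjusted p = 0.000827). Hoxc4, Hoxc9 and Hoxc12 also rose, by 1.46, 1.70 and 1.24, and the peak of the cluster lay at Hoxc10 and Hoxc11 in both comparisons. With offsets for GC content and gene length Hoxc12 was at 0.73 and missed the threshold (edgeR adjusted p = 0.0643). In HoxD, Hoxd8 and Hoxd10 fell and Hoxd12 and Evx2 rose. In HoxA 4 of 11 rose, and in HoxB 2 of 8 tested genes rose, 1 of them Hoxb9 by 1.05 ± 0.17 (edgeR adjusted p = 0.00351). Beside the shares over all tested genes, nothing is read from the HoxD and HoxB counts.

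Calb2 rose by 2.53, Gchfr by 2.29, Sall4 by 1.88, Evx1 by 1.71 and 5730457N03Rik by 1.40. Gchfr was uneven, with 2.90 and 3.36 CPM in Dup-C and 0.726 and 1.95 CPM in ΔBor het, against 0.388 and 0.493 CPM in Dup-L. Afp was the exception, with 2.19 and 1.36 CPM in Dup-C and 0.518 and 9.03 CPM in ΔBor het, against 12.47 and 11.07 CPM in Dup-L. Its log2 fold change of -1.93 ± 0.72 did not pass (edgeR adjusted p = 0.0962).
Phex had 4.64 and 2.98 CPM in Dup-C and 5.91 and 7.58 CPM in ΔBor het, against 23.1 and 19.97 CPM in Dup-L, and fell by 2.01 (edgeR adjusted p = 0.0037). Cer1 had 0.750 and 0.411 CPM in Dup-C and 1.14 and 1.34 CPM in ΔBor het, against 2.85 and 3.04 CPM in Dup-L, and fell by 1.70 (edgeR adjusted p = 0.0012). Aspn, the matrix protein asporin, fell by 1.86, Dnm3os by 1.64, Ecm2 by 1.51, Enpp6 by 1.31 and Meg3 by 0.78. These genes that fell were named from those at least 2-fold lower in Pitx1-high WT in both ranges. Their shared direction follows from that choice and is no added result.

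**Figure D5:**
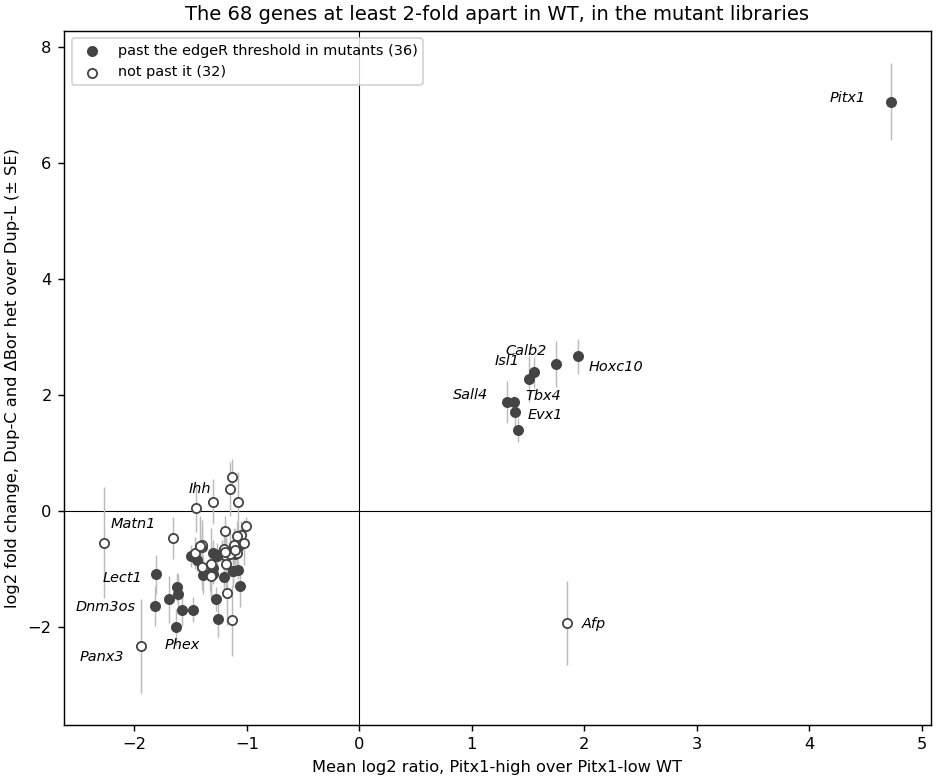
The 68 genes at least 2-fold apart in both WT ranges, with the mean WT log2 ratio on the x axis and the log2 fold change of Dup-C and ΔBor het over Dup-L with its standard error on the y axis; filled points passed the edgeR threshold (36 genes). Apart from Afp, every higher gene lies above 0 in the mutants, and most lower genes lie below 0.

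Of 17 cartilage genes tested in the mutants, 3 fell (Matn3, Hapln1 and Lect1) and none rose. Over all tested genes, 7% fell and 13.3% rose. The cartilage median was -0.10, against 0.01 over all genes. With offsets for GC content and gene length the cartilage median was -0.35, against 0.02 over all genes, and Matn3 and Lect1 missed the threshold (edgeR adjusted p = 0.135 and 0.101). Without those offsets Lect1 fell by 1.09 with an edgeR adjusted p of 0.0493, close to the threshold, and Col11a2 and Comp had fold changes of 0.16 and -0.47 that did not pass. Of 11 hypertrophic and bone genes 1 rose and 2 fell, and of 14 joint genes 1 rose and 2 fell. Of 13 tendon genes 2 rose and 2 fell, and of 23 muscle genes 1 rose and 1 fell. Nothing is read from the bone, joint, tendon and muscle counts beside the shares over all tested genes.
Erythroid genes rose in 7 of 10 and surface ectoderm genes in 6 of 20, with none falling, against 13.3% of all tested genes that rose and 7% that fell. Hbb-bh1, an embryonic globin, had 190 and 311 CPM in Dup-C and 110 and 90.7 CPM in ΔBor het, against 57.2 and 52.6 CPM in Dup-L. Of the patterning lists, 7 of 17 distal genes, 7 of 15 ridge and FGF genes and 3 of 3 dorsal-ventral genes rose and none fell, and 2 of 20 anterior-posterior genes rose and 2 fell. Of 17 BMP pathway genes 4 rose and 1 fell, of 14 proximal genes 3 rose, and of 22 cell cycle genes 6 rose. In the remaining lists, 3 of 16 nerve genes rose and 3 fell, 4 of 17 immediate early genes rose, 2 of 22 hypoxia genes rose, 1 of 17 endothelial genes rose, and none of 13 macrophage or 11 trunk genes passed. Beside the shares over all tested genes, nothing is read from the counts of the anterior-posterior, BMP, proximal, cell cycle and remaining lists.

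GC content moved with the mutant contrast: the median log2 fold change was -0.19, -0.09, 0.03, 0.15 and 0.35 over 5 bins from the lowest to the highest GC. With offsets for GC and length these medians lay between 0.01 and 0.04, and 1749 genes rose and 934 fell. In that fit 35 of the 68 WT genes, Pitx1 included, passed in the WT direction. Tbx4 then rose by 1.78, Hoxc10 by 2.66 and Isl1 by 2.56, and Tbx5 fell by 0.86. Of 39 named genes past the threshold, 9 missed it with these offsets, namely Hoxc12, Lect1, Matn3, Angptl1, Pamr1, Hhip, Wnt7a, Wnt16 and Sp8. The calls lean on both Dup-L libraries: without Dup-L 2, 6 of the 68 genes passed in the WT direction (Pitx1, Tbx4, Isl1, Hoxc10, Cer1 and Ecm2), and without Dup-L 1, 15 did. Hoxc11 and Tbx5 passed in each fit that left out 1 library, where a lone library was assumed to vary like the other groups.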

How the data were processed

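PolyA RNA of mouse limb buds was sequenced with the TruSeq RNA V2 kit, per the labels. Reads were aligned with STAR to mm9, and DESeq2 and bedtools 2.17.0 are also named, per the submitters' processing notes. Neither the counter nor its use of strand is named in the sources used here. Other named genes also have spans that overlap a gene on the opposite strand. Among them are Aspn and Ecm2 (Cenpp), Meg3 (Gm26906), Angptl1 (Ralgps2) and Pla2g4b (Sptbn5). Reads from such overlaps cannot be told apart either. The authors deposited raw counts for 34682 genes, and 10244 of them had no count in any library. They also deposited FPKM values of the same genes, on a library scale that those sources do not name, which served only as an alternative. A copy suffix is carried by 1781 names, and 1997 genes have counts identical to another's, none of them among the 68 called genes. Columns were matched to samples by genotype and replicate, and the 2 fingertip samples of stage E17.5 were not analysed here. Dup-LΔBor columns (R2 to R5) could be matched to their group only.

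WT ratios were computed from CPM with a pseudocount of 0.5 and a minimum mean of 1 CPM, with a 2-fold rule in both library-number ranges and no test. Mutant counts were fitted in R 4.3.3 with edgeR 4.0.16 (TMM, filterByExpr, robust quasi-likelihood F-test, two-sided, Benjamini-Hochberg over all genes tested, threshold 0.05), as the mean of Dup-C and ΔBor het minus Dup-L with all 11 mutant libraries in 1 fit. The SE was derived from the F statistic. DESeq2 1.42.0, limma 3.58.1 on log2 FPKM, other scales, filters, folds, groups, GC and length offsets, a replicate block and omitted libraries were the alternatives, and each was run. The code was tested on simulated data. GC content, length, chromosome and overlaps came by symbol from a GRCm38 annotation, and promoters from RefSeq, so no coordinates of mm9 are given.

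Named genes were the limb-type and HoxC lists, the 15 genes in each direction with the largest smaller WT ratio, the 10 in each direction called in WT with the lowest mutant adjusted p, and called list members. Other list members were picked as examples after their values were seen. The members, the 27 gene lists and the mutant contrast were chosen with earlier results of these data known, including Pitx1 in the mutants. Single values of 2 list members are not reported here, and the list counts include them.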

Additional observations from a re-analysis of the deposited data

Results flagged for a closer look

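Xist stood apart in 1 WT library, with 2224 CPM in WT 1 against at most 1.05 CPM in the other WT libraries, and that gap is nearly the whole range of the 4 values. Of 65 named genes examined in the same way, chance would put about 1 in 20 past the limit used for 4 values.

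Afp ran in opposite directions in the WT and mutant comparisons. Its mean log2 ratio was 1.85 in Pitx1-high over Pitx1-low WT and its log2 fold change was -1.93 in Dup-C and ΔBor het over Dup-L. The difference between the comparisons was not tested, and ΔBor het 1 and 2 differed from each other, at 0.518 and 9.03 CPM.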

How the results depend on the processing

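Depth limits the low genes, since Isl1, Panx3 and Cer1 rest on as few as 10, 17 and 26 reads in a WT library. The WT counts depended on most settings. The count of higher genes (10) became 3 at a mean of 5 CPM, 6 when every Pitx1-high library had to pass against every Pitx1-low library, 45 at 1.5-fold, 1 at 4-fold, 80 in the first range alone and 24 in the second alone. The count of lower genes (58) became 38 with TMM, 35 with DESeq2 size factors, 96 and 37 with pseudocounts of 0.1 and 1 CPM, 34 at a mean of 5 CPM, 23 with FPKM, 28 with every library against every other class library, 502 at 1.5-fold, 0 at 4-fold, 231 in the first range alone and 156 in the second alone. Leaving out 1 WT library gave 13 to 63 higher genes and 52 to 186 lower genes.

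In the mutants, 4651 genes rose and 4087 fell for Dup-LΔBor against Dup-L, and 547 rose and 175 fell for ΔBor het alone. Omitting 1 library of the mutant contrast gave 72 to 2957 rising genes and 26 to 2030 falling genes. The lowest of each came without Dup-L 2. With WT omissions included, the count of shared genes ran from 6 without Dup-L 2 to 96 without WT 3. Without WT 3 the WT lists themselves became 63 higher and 186 lower genes, so 96 is not a share of the 68 called genes. Shared genes (36, Pitx1 included) numbered 13 with ΔBor het alone and 21 with every WT library against every other class library. Of 39 named genes past the threshold, 30 missed it without Dup-L 2, 19 without Dup-L 1 and 20 with ΔBor het alone.

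Replicate numbers 1 and 2 in Dup-C, ΔBor het and Dup-L did not pair the libraries, since the correlations of their differences were -0.103, 0.0766 and -0.120. With a replicate block on the 6 libraries alone, 756 genes rose and 437 fell, and 30 were shared. Without the block, a fit of those 6 libraries, added after seeing the data, gave 1634 rising, 1036 falling and 38 shared genes. The block with GC and length offsets gave 1457 rising genes.

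Among the named genes reported here, where the fold change passed the threshold in at least 1 of the fits compared, the sign turned only in Dup-LΔBor against Dup-L, for Hoxc13 (-0.78), Lect1 (0.21), Ptprv (0.98), Pla2g4b (0.38), Hoxa2 (-0.67), Sp8 (-0.40), Chrd (0.49), Comp (1.38), Cd68 (0.59) and Vegfa (1.002). These libraries lie in the second range and Dup-L in the first, so range and genotype cannot be told apart there. Genes that passed in neither fit also turned, among them Col11a2 (-0.44) and Ihh (-0.43) with GC and length offsets. The causes of the other moves were not tested.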

Other observations

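The 5 libraries outside the mutant contrast also had high Pitx1, at 76.8 CPM in ΔBor hom and between 41.1 and 74.6 CPM in Dup-LΔBor. Tbx4 was at 59.5 CPM in ΔBor hom and between 94.4 and 111 CPM in the 4 Dup-LΔBor libraries. Tbx5 was at 92.8 CPM in ΔBor hom and between 87.6 and 115 CPM in Dup-LΔBor. Isl1 was at 3.03 CPM in ΔBor hom and between 1.54 and 2.49 CPM in Dup-LΔBor, and Hoxc10 at 10.2 CPM in ΔBor hom and between 4.09 and 8.27 CPM in Dup-LΔBor. Hoxc11 was at 3.06 CPM in ΔBor hom and between 0.997 and 1.88 CPM in Dup-LΔBor, where all 4 libraries lay below both Pitx1-high WT libraries. Phex was at 4.51 CPM in ΔBor hom and between 1.67 and 5.15 CPM in Dup-LΔBor, below both Pitx1-low WT libraries.

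Other genes of the WT list took their own course in Dup-LΔBor. Lect1 lay between 10.2 and 21.0 CPM, reaching the level of Pitx1-low WT, and Meg3 lay between 0.102 and 0.296 CPM, far below every WT library. Matn1 spread over 2.93 to 15.98 CPM among these 4 libraries.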
